A study of Mus musculus with 16 samples.

Results

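Olfactory sensory neurons release glutamate from vesicles at their axon terminals in the olfactory bulb, and 9 genes of that release step are described here out of 19505 genes measured in 16 libraries of sorted mouse olfactory mucosa. They were chosen by name, as glutamate loading and synaptic vesicle genes, and each was read by 1 probe set: Slc17a6, Syp, Syn1, Syn2, Vamp2, Snap25, Syt1, Cplx1 and Gabbr1. A vesicle is filled with glutamate by a vesicular transporter, tethered to its neighbours and to actin by synapsins, and fused with the terminal membrane by SNARE proteins when a synaptotagmin binds calcium. Complexins clamp and assist that fusion, and GABA-B receptors on the olfactory terminal damp it by closing calcium channels. The same machinery carries odor signals from every receptor type to the bulb, so its transcripts are found throughout the mature olfactory neurons.

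The samples came from S100a5-tauGFP mice on C57BL/6, in which a GFP reporter follows S100a5, a calcium-binding protein gene that active olfactory neurons express more strongly. Groups of 3 mice of both sexes, aged 7 to 12 weeks, made 8 pools, 24 mice in all, and every mouse spent 40 hours in a clean air chamber at 3.1 L/min. From hour 26 the mice of 4 pools received 10 second pulses of bourgeonal, an odorant with a lily of the valley scent, every 20 minutes, and those of the other 4 pools received filtered air on the same schedule (the vehicle). Cells of each pool were sorted by GFP into a positive and a negative gate, which gave 4 groups of 4 libraries: vehicle and bourgeonal, each in both gates. RNA was hybridised to Clariom S arrays, whose deposited values are log2 signals. The labels disagree on the gate, since each of the 16 titles names the gate opposite to the one in that sample's cell type field. The groups below follow the titles, and a gate difference is the library titled GFP- minus the library titled GFP+ of the same pool. S100a5 itself read higher on the side titled GFP- for 8 of 8 pools, by 1.02 ± 0.25 on the log2 scale (SD, n = 8 pools), so the reporter's own gene goes with the cell type field and against the title. Nothing in the labels says that a pool's mice were littermates, and a pool averages 3 animals.

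Of the 9 genes, both synapsins differed between the gates and the other 7 did not pass the same test, in a comparison that called 14.4% of all genes higher and 13.2% lower. Syn1, which codes for synapsin I, was 1.57-fold higher in the libraries titled GFP-, and Syn2, which codes for synapsin II, was 1.67-fold higher, each in 8 of 8 pools. The remaining genes, which cover glutamate loading, the SNARE proteins, the calcium sensor and the receptor, differed by between 0.09 and 0.21 on the log2 scale. None of the 9 genes passed the test of bourgeonal against vehicle in either gate.

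Because only the synapsins passed that test between the gates, the 250 bases upstream of their starts are shown first. They are read 5′ to 3′ on the strand of the gene, from RefSeq on GRCm38.p6. Capitals in the Syn1 window mark TTCAGCACC, the left-hand core of the element bound by REST, a repressor of neuronal genes outside neurons, and TGACGTCA, the palindromic cyclic AMP response element. The Syn1 window is chrX:20920919-20921168 on the minus strand and the Syn2 window is chr6:115134652-115134901 on the plus strand. Syn2 has another RefSeq start at chr6:115238744-115238993, whose window is not printed.

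Syn1: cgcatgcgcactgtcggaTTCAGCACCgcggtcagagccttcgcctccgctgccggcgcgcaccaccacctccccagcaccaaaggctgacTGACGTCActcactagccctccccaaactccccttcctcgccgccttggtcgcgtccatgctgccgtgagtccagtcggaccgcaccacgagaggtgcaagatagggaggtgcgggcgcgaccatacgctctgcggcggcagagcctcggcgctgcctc
Syn2: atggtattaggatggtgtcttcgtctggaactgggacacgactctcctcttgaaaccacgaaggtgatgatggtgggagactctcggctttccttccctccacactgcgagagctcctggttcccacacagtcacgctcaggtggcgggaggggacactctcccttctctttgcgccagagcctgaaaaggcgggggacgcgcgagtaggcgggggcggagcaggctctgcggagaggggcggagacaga

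In Syn1 the REST core began 232 bases and the cyclic AMP response element 159 bases before the start. On either strand, TTCAGCACC was found in 0.301% and TGACGTCA in 1.546% of 32851 upstream windows of the same length. The shorter TGACG, which lies inside TGACGTCA, was found in 17.765% of windows, GGACAG, from the right-hand core of the REST element, in 18.672%, CACGTG, an E-box, in 6.021%, and CCCNNGGG, a core of the Olf/Ebf sites of olfactory genes, in 11.817%. Neither Syn2 window held any of these 6 motifs. RefSeq windows were found for 7 of the 9 genes, 10 windows in all. Outside Syn1, a Slc17a6 window held TGACG at 102 bases and a Syt1 window held GGACAG at 161 bases before the start, and the others held none of the 6. A match describes letters only, and no binding was measured in these samples.

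All of the 9 genes but Cplx1 gave signal far above background. The background guide was the 95th percentile of 321 vomeronasal receptor genes, which lay between 4.29 and 4.97 by library. Cplx1, which codes for complexin 1, lay between 4.13 and 4.92 and exceeded its library's guide in 2 of 16 libraries, so its differences carry little information. Every other gene of the set exceeded the guide in 16 of 16 libraries. Intronic control probe sets gave a higher 95th percentile, 8.10 to 9.44 by library, which was not used as the guide. Syn1, at 10.56 or more, and the brighter genes of the set lay above that level too. Some genes named below as above background averaged less than it: Tph2 (5.83), Cacnb1 (5.92), Cnr1 (6.78), Bsn (7.62) and Syt10 (7.81). Syp, which codes for the vesicle membrane protein synaptophysin, read 17.76 to 18.04, with the brightest probe sets of these arrays at 19.38 to 19.59, and differences that close to the top of the scale can be compressed. Levels of different genes are not ranked here, because probe sets differ in brightness.

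**Figure D1:**
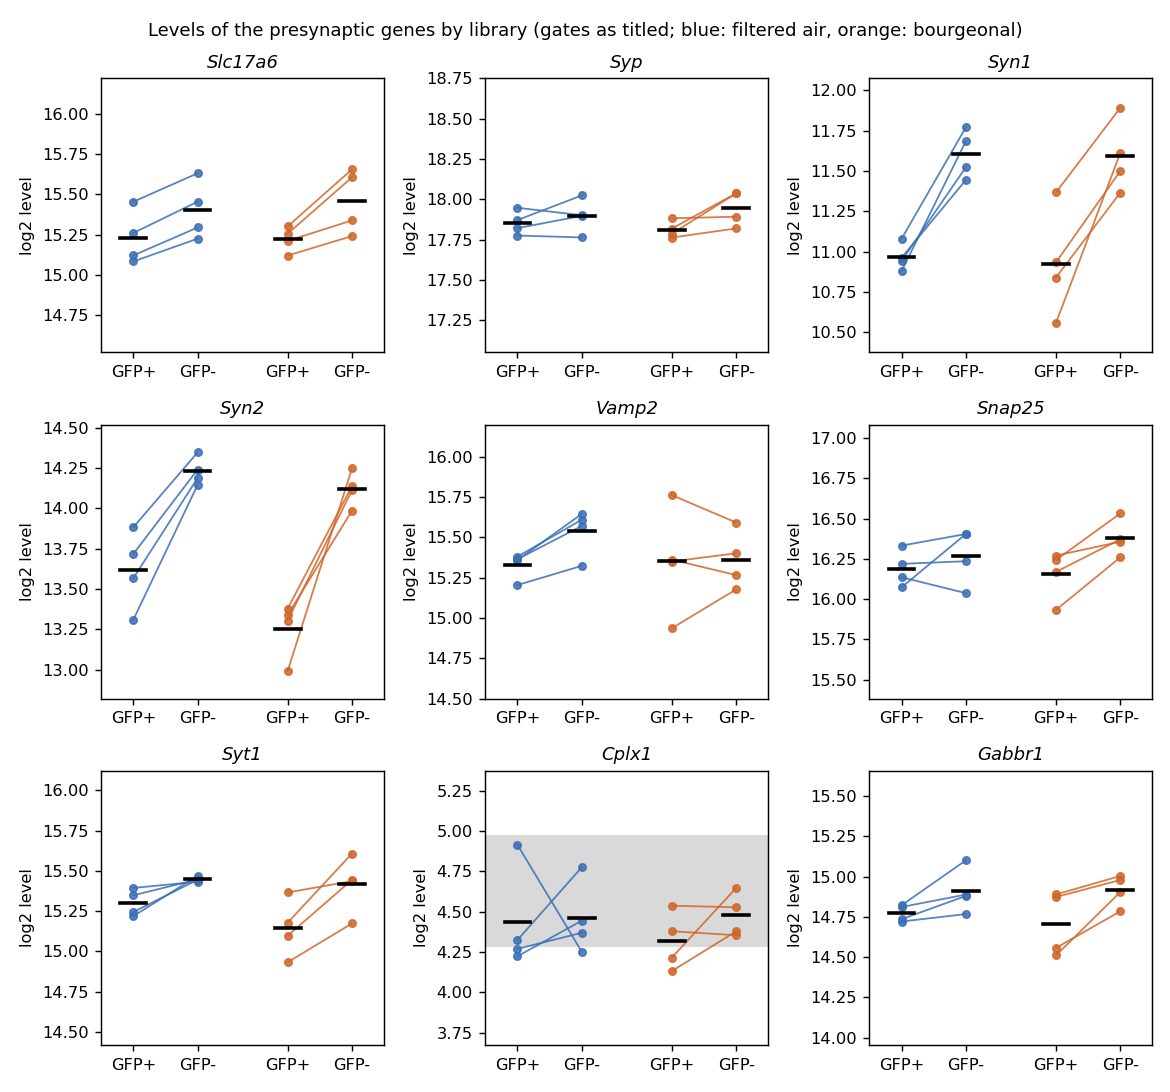
Levels of the 9 genes in each library (vertical axis, deposited log2 signal; each panel spans the same 1.7 log2 units), with vehicle pools in blue and bourgeonal pools in orange, lines joining the gates of 1 pool, and black bars at the group means of 4 libraries. Lines rise from titled GFP+ to titled GFP- in 8 of 8 pools for Syn1 and Syn2; the grey band in the Cplx1 panel is the background guide, 4.29 to 4.97.

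Slc17a6 codes for VGLUT2, the transporter that loads glutamate into vesicles of these neurons. Its level was 15.23 ± 0.17 in vehicle libraries titled GFP+ and 15.40 ± 0.18 in those titled GFP- (SD, n = 4 each). In bourgeonal pools it was 15.22 ± 0.08 and 15.46 ± 0.20 (SD, n = 4 each). The groups overlapped, but within each pool the library titled GFP- was the higher one, by 0.12 to 0.35, in 8 of 8 pools. The mean gate difference of 0.20 had a limma standard error of 0.08 and an adjusted p of 0.0744, and the exact two-sided sign-flip test over pools gave 0.0078, the smallest p that 8 pools allow. A gene was higher in all 8 pools for 9.74% of all genes, and 5 of the 9 genes were: Slc17a6, Syn1, Syn2, Syt1 and Gabbr1.

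The synapsins coat the vesicle surface and hold vesicles in reserve until phosphorylation frees them. Syn1 read 10.94, 10.88, 10.96 and 11.08 in vehicle pools 1 to 4 titled GFP+, and 11.52, 11.69, 11.44 and 11.77 in the same pools titled GFP-. In bourgeonal pools 1 to 4 it read 11.37, 10.93, 10.56 and 10.84 titled GFP+, and 11.89, 11.50, 11.61 and 11.37 titled GFP-. The lowest libraries were all titled GFP+, and the gates met at 11.37, where the highest library titled GFP+ (bourgeonal pool 1) and the lowest titled GFP- (bourgeonal pool 4) differed by less than 0.01. Its gate difference ranged from 0.48 to 1.06 by pool, and the mean of 0.65 had a standard error of 0.09 and an adjusted p of 0.000343 (limma with the pool as a block, Benjamini-Hochberg over 19505 genes).

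Syn2 separated the gates in every library. It read 13.57, 13.72, 13.88 and 13.31 in vehicle pools 1 to 4 titled GFP+, against 14.19, 14.24, 14.35 and 14.15 titled GFP-. In bourgeonal pools 1 to 4 it read 13.34, 13.38, 12.99 and 13.31 titled GFP+, against 13.99, 14.14, 14.25 and 14.11 titled GFP-. The highest library titled GFP+, at 13.88, lay below the lowest titled GFP-, at 13.99, and 2.62% of all genes were separated in that direction. The mean gate difference was 0.74 with a standard error of 0.09 (limma adjusted p = 0.000166), and it ranged from 0.47 to 1.26 by pool. Bourgeonal pool 3 gave the widest gap for both synapsins. Its library titled GFP+ was the lowest of the 16 for Syn1 and for Syn2, and its library titled GFP- was the highest of the 4 bourgeonal ones for Syn2.

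With 2 of 9 genes called higher and 0 called lower, the set stood beside the 14.4% and 13.2% of all genes called in these directions, so the share is not by itself a property of these 9 genes. The median gate difference of the 9 was 0.17, against 0.10 over all genes, and 7 of the 9 lay above that median gene. The synapsins stood high in the whole table, where 3.65% of genes had a larger gate difference than Syn1 and 2.97% a larger one than Syn2. Within each of the 8 pools both synapsins differed by more than every other gene of the set. Against the mean of the 6 other genes above background, Syn1 exceeded by 0.50 ± 0.16 and Syn2 by 0.58 ± 0.19 (SD, n = 8 pools). The synapsins were singled out for these comparisons after their values were seen, so an excess was partly fixed by that choice.

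The vesicle and target membrane SNARE genes showed small differences that did not pass. Vamp2, which codes for synaptobrevin 2 on the vesicle, was 15.33 ± 0.08 and 15.35 ± 0.34 in vehicle and bourgeonal libraries titled GFP+, against 15.54 ± 0.15 and 15.36 ± 0.18 titled GFP- (SD, n = 4 each). Its gate difference of 0.11 (95% interval -0.07 to 0.29, limma adjusted p = 0.350) was positive in 6 of 8 pools, and both negative pools had received bourgeonal. Snap25, which codes for the target membrane SNARE that pairs with it, was 16.19 ± 0.11 and 16.15 ± 0.15 titled GFP+, against 16.27 ± 0.17 and 16.38 ± 0.11 titled GFP- (SD, n = 4 each). Its gate difference was 0.15 (95% interval -0.03 to 0.34, adjusted p = 0.199 by limma) and positive in 7 of 8 pools. For Syp the gate difference was 0.09 (95% interval -0.09 to 0.26, limma adjusted p = 0.429), positive in 6 of 8 pools. These intervals leave room for differences of up to 1.26-fold for Snap25, 1.22-fold for Vamp2 and 1.20-fold for Syp.

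Syt1 codes for synaptotagmin 1, the calcium sensor that triggers fast release. It was 15.30 ± 0.08 in vehicle and 15.14 ± 0.18 in bourgeonal libraries titled GFP+, against 15.45 ± 0.02 and 15.42 ± 0.18 titled GFP- (SD, n = 4 each). The gate difference of 0.21 (95% interval 0.03 to 0.39, limma adjusted p = 0.0804) had the same sign in 8 of 8 pools, from 0.04 to 0.43. For Cplx1, near background, it was 0.09 (95% interval -0.18 to 0.37, limma adjusted p = 0.605), with 5 of 8 pools positive.

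Gabbr1 codes for the ligand-binding subunit of the GABA-B receptor, through which bulb interneurons inhibit olfactory terminals. Its level was 14.77 ± 0.05 and 14.71 ± 0.20 in vehicle and bourgeonal libraries titled GFP+, against 14.91 ± 0.14 and 14.92 ± 0.10 titled GFP- (SD, n = 4 each). The gate difference of 0.17 (95% interval -0.004 to 0.35, limma adjusted p = 0.133) was positive in 8 of 8 pools. Gabbr2, the subunit that couples to G proteins, and Drd2, the dopamine receptor of the same terminals, gave 0.20 each (limma adjusted p = 0.0675 and 0.0724), also positive in 8 of 8 pools; they were picked out after their values were seen.

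How many of the 9 genes passed rested on the fit and on the scaling. With a mean-variance trend and a robust prior in limma, 6 of 9 passed, adding Slc17a6, Syt1, Snap25 and Gabbr1 to the synapsins. That fit called 3146 of 19505 genes higher. With genes near background left out 4 of 8 passed, adding Slc17a6 and Syt1, beside 2625 of 13011 genes called higher. Centring each library on its median moved the median gate difference of all genes from 0.10 to 0.46. It called 9 of 9 genes higher, beside 14336 of all 19505. The share of all calls that were higher rose from 52.2% to 88.9% (62.9% with quantile normalization).

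Libraries of the 2 gates also differed in markers of other cells, in the comparison that called 14.4% of all genes higher and 13.2% lower. All 13 measured immune markers, such as Lyz2 and S100a8, were lower in the libraries titled GFP-, and the median marker level was 4.08 to 5.42 there, about background, against 9.38 to 11.23 in the libraries titled GFP+. All 12 markers of microvillar cells and all 7 of dividing progenitors were also lower, with median levels of 4.47 to 5.05 against 7.51 to 8.57, and of 4.02 to 4.57 against 6.77 to 7.41. Of the 7, Cdk1, named after its values were seen, lay below background in all 4 groups, and Neurog1 lay above it in 1. Of 12 sustentacular markers 8 were lower, and the median level was 6.16 to 7.49 against 9.32 to 9.99. Of 13 immature neuron markers 8 were lower and 1 higher, with a median difference of -0.58 and a median level of 11.20 to 11.95 against 11.96 to 12.63. For olfactory glia 2 of 6 markers and for guanylate cyclase D neurons 3 of 7 were lower, and none was higher. Of the lower glial markers, Sox10 lay below background in all 4 groups. Gucy2d, the guanylate cyclase gene itself, also lay below background in all 4 and did not pass (-0.30, limma adjusted p = 0.0776). Cnga3 (0.21) and Gucy1b2 (0.54), named after their values were seen, pointed the other way without passing. These counts therefore say little about either cell type. Of 14 markers of mature olfactory neurons 4 were higher and none lower, with a median difference of 0.14 against 0.10 over all genes. Their median level was 17.49 to 17.69 in the libraries titled GFP-, against 17.02 to 17.27, so the gates did not overlap in that median. By mean level Adcy3 (17.44) and Ano2 (17.32) stood in the middle of the list, and both were called higher, by 0.30 and 0.46. The median level therefore follows these genes more than the whole list. Gnal (0.02), Stoml3 (-0.01), Gfy (0.03) and Rtp1 (0.03) did not pass. Ano2 and these 4 were named after their values were seen. Omp, the marker that defines mature olfactory neurons, differed by 0.04 (95% interval -0.13 to 0.21, limma adjusted p = 0.717). It read 18.63 to 18.97, closer than Syp to the brightest probe sets, so its difference can be compressed. With centred libraries the immune, microvillar and progenitor counts were the same. Then 7 sustentacular markers were lower and 1 higher, and 7 immature neuron markers were lower and 4 higher. For glia 1 marker was lower and 3 higher, and for guanylate cyclase D neurons 3 were lower and 2 higher. All 14 mature neuron markers were higher. Centring called 14336 of all 19505 genes higher and 1792 lower, so a high count of higher markers is not by itself a property of a list. The part of these cells in the synapsin difference was not tested, and in sorted bulk RNA fewer neurons and less RNA of a gene in each neuron cannot be told apart.

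In vehicle pools alone, Syn1 differed between the gates by 0.64 with a standard error of 0.13 (limma adjusted p = 0.00641) and Syn2 by 0.61 with a standard error of 0.13 (limma adjusted p = 0.00966). These 2 of 9 genes compare with 6.23% of all genes called higher and 9.95% called lower in vehicle pools. Without vehicle pool 4, Syn2 gave 0.54 with an adjusted p of 0.0529. In bourgeonal pools Syn1 differed by 0.67 with a standard error of 0.13 (limma adjusted p = 0.00455) and Syn2 by 0.87 with the same standard error (limma adjusted p = 0.00095), beside 7.82% of all genes called higher and 10.2% lower. The share of calls that were higher went from 38.5% to 87.3% in vehicle pools and from 43.3% to 87.3% in bourgeonal pools when libraries were centred (53.7% and 55.0% with quantile normalization).

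The change of the gate difference with odor, taken as bourgeonal pools minus vehicle pools, was tested directly and passed for 0 of the 9 genes. It passed for 0% of all genes higher and 0% lower, while 1109 of 19505 genes, none of them among the 9, had an unadjusted limma p under 0.05. Syn2 gave the highest value, 0.26 (95% interval -0.16 to 0.68, limma adjusted p = 0.888), and Vamp2 the lowest, -0.20 (95% interval -0.57 to 0.16, limma adjusted p = 0.892). For Syn1 it was 0.03 (95% interval -0.38 to 0.44), and it turned negative, to -0.03, under quantile normalization. Changes of up to 1.60-fold for Syn2 and 1.35-fold for Syn1 lie inside these intervals.

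The test of bourgeonal against vehicle within a gate passed for none of the 9 genes. In libraries titled GFP+ limma called 0% of all genes higher and 0.0103% lower (2 genes, neither of the set), with 827 genes at an unadjusted p under 0.05. Syn2 had the widest difference, from 13.62 ± 0.24 in vehicle to 13.25 ± 0.18 in bourgeonal libraries (SD, n = 4 each), a difference of -0.37 (95% interval -0.73 to 0.001; adjusted p = 0.999 by limma). The exact two-sided permutation test of Syn2 gave 0.0857, where 0.0286 is the smallest p that 4 against 4 libraries allow, and the ranges met only through vehicle pool 4, at 13.31, below the 13.34 and 13.38 of bourgeonal pools 1 and 2. The labels do not say what a replicate number shared by a vehicle and a bourgeonal pool stands for, and the mice differ. Taken by that number, Syn2 read lower with bourgeonal in 4 of 4 pairs titled GFP+ (-0.23, -0.34, -0.89 and -0.004). It did so in 4 of 4 titled GFP- (-0.20, -0.10, -0.10 and -0.03), from the same mice, so the counts are not independent. Vamp2 titled GFP- was also lower in 4 of 4, and Syn2 was singled out after its values were seen. With the replicate number as a block, limma gave the difference titled GFP+ an adjusted p of 0.825 and that titled GFP- one of 0.970. Syt1 differed by -0.16 (95% interval -0.48 to 0.16), and the other 7 genes by between -0.12 and 0.03. In libraries titled GFP- limma called 0% of all genes in either direction, with 869 at an unadjusted p under 0.05. There Vamp2 differed by -0.18 (95% interval -0.51 to 0.16) and Syn2 by -0.11 (95% interval -0.41 to 0.19), and the highest value was 0.11, for Snap25. All 18 intervals lay between -0.73 and 0.43, and the ranges of vehicle and bourgeonal libraries overlapped for each gene in each gate. S100a5 differed between bourgeonal and vehicle by 0.005 in libraries titled GFP+ and by 0.15 in those titled GFP- (limma adjusted p = 0.996 for the latter).

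Beyond the 9 genes, 149 other genes of the presynaptic terminal in 10 groups were measured, and the gates differed for 30 of them upward (20.1%) and 14 downward (9.4%), beside 14.4% and 13.2% of all genes, with a median gate difference of 0.11 against 0.10 over all genes. These counts became 117 higher and 9 lower with each library centred on its median, beside 14336 and 1792 of 19505 genes. With quantile normalization they became 36 and 17, beside 4200 and 2475 of 19505. Of the 30, 7 lay below background in all 4 groups, as did 2 of the 14. In every group of genes below, 0 members passed for the difference between bourgeonal and vehicle pools. All calls are from limma with the pool as a block.

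The third synapsin, Syn3, read 12.12 to 12.92, and it was also higher in the libraries titled GFP- in 8 of 8 pools, by 0.33 with a standard error of 0.09 (limma adjusted p = 0.0186). Syn3 was singled out after its values were seen. Among 17 vesicle membrane genes 5 were higher, 3 lower and 9 did not pass. Syngr1, a synaptogyrin of synaptic vesicles, was higher by 1.26 with a standard error of 0.09 and Sv2c, a vesicle glycoprotein, by 0.63, and Sv2a (0.59), Sv2b (0.47) and Scamp5 (0.46) completed the 5; the last 3 were named after their values were seen. Syngr2, the synaptogyrin of non-neuronal cells, was lower by 2.69 and Rab27b, a GTPase of secretory granules, by 1.44. The acidification genes, subunits of the vacuolar proton pump that powers glutamate loading, did not pass for any of 13 members.

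Of 6 genes of glutamate supply, 1 was higher and 2 lower. The glutamine transporters Slc38a1 and Slc38a2 were lower by 2.34 and 0.32, though Slc38a2 turned to 0.03 with centred libraries. The other vesicular glutamate transporters, Slc17a7 and Slc17a8, exceeded the background guide in 0 of 16 libraries, so the call of Slc17a8 (0.51, limma adjusted p = 0.0253) is between values below background; Slc17a6 exceeded it in 16 of 16.

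Of 19 SNARE genes and partners, 3 were higher, 3 lower and 13 did not pass. Nsf, the ATPase that takes spent SNARE complexes apart, was higher by 0.47 in 8 of 8 pools. The 3 lower genes serve secretion outside synapses: Stxbp2, a partner of syntaxins in granule release, by 3.13, Snap23, the widely expressed relative of Snap25, by 1.61, and Vamp8, an endosomal and granule SNARE, by 1.39. Immune, microvillar, progenitor and most sustentacular markers given above were lower in the same libraries. The part of those cells in these 3 values was not tested.

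Of 17 synaptotagmins, complexins and related genes, 5 were higher and 0 lower, Syn3 among them. Syt4, a synaptotagmin that does not bind calcium in the usual way, was higher by 1.02, Syt10 by 0.61 and Syt9, a fast calcium sensor, by 0.42, each in 8 of 8 pools. Syt13 was called at 0.34 but lay below background in all groups. Of the complexins, Cplx2 read 10.55 to 11.36 with a gate difference of 0.24 (95% interval 0.02 to 0.46, limma adjusted p = 0.101), and Cplx3 and Cplx4 were above the guide in 0 of 16 libraries. Syt10 passed in vehicle pools (0.87) and not in bourgeonal pools (0.35), and the difference between these values did not pass (-0.52, limma adjusted p = 0.823).

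In the active zone, where vesicles dock, 5 of 24 genes were higher, 1 lower and 18 did not pass. Apba1, an adaptor that binds Munc18, was higher by 0.82 and Bsn, the scaffold bassoon, by 0.55, while Rims3 was lower by 0.42, which did not pass with centred libraries, and Rimbp2 was called below background. Of 9 calcium channel genes 1 passed, the beta subunit gene Cacnb1, at 0.44. Cacna1b, the pore of the N-type channel that GABA-B receptors close in these terminals, gave -0.26 (95% interval -0.46 to -0.05, limma adjusted p = 0.0608), turned to 0.10 with centred libraries and was named after its values were seen.

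For vesicle recycling, 4 of 21 genes were higher, 2 lower and 15 did not pass. Pacsin1, a neuronal membrane-bending protein, was higher by 0.74, and Bin1 and Dnm2, the broadly expressed amphiphysin and dynamin, were lower by 0.40 and 0.39, neither of which passed with centred libraries. Sncg was called below background. Of 12 genes of presynaptic inhibition 4 were higher, 1 lower and 7 did not pass. Rgs7, which speeds the shut-off of inhibitory G proteins, was higher by 1.23 and Cnr1, the cannabinoid receptor, by 0.81, and Grm7 was called below background. Gnai2, an inhibitory G protein gene that leukocytes express strongly, was lower by 5.91. Immune, microvillar, progenitor and most sustentacular markers were lower in the same libraries, and the part of those cells was not tested.

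**Figure D2:**
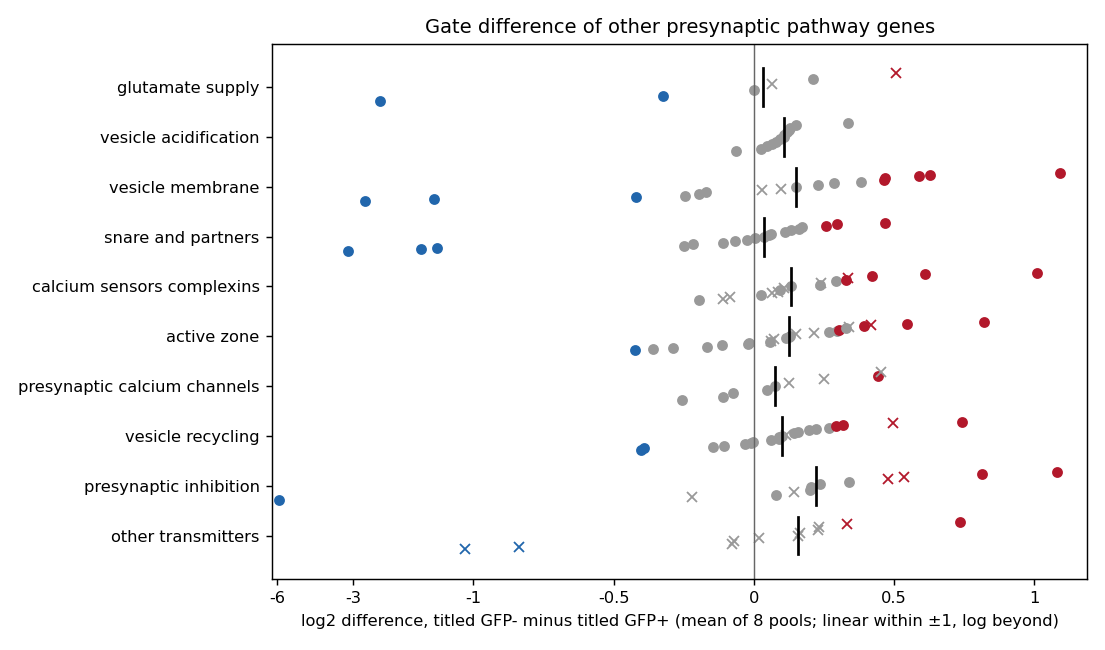
Gate difference (horizontal axis, titled GFP- minus titled GFP+, mean of 8 pools in log2 units, linear between -1 and 1 and logarithmic beyond) of every measured gene in the 10 groups of presynaptic genes. Red points were called higher, blue lower and grey points did not pass in limma, crosses mark genes below background in all 4 groups, and the black line is the median of the group; the lowest point is Gnai2 at -5.91 and the highest is Syngr1 at 1.26.

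The genes whose levels followed each synapsin most closely over the 16 libraries were sought among 10821 genes above background, as a description, since libraries of a gate share their cell mixture and libraries of a pool share mice. Syn1 was followed best by Nlgn3 (Pearson r = 0.93), Galnt15 (0.91) and Ppp1r16b (0.91). For Syn2 the closest were Gpr162 (0.95), Sema4d (0.93) and Mapk4 (0.92). Slc17a6 was followed by Dlg2 (0.93), Pak3 (0.91) and Polrmt (0.91), Syt1 by Cacfd1 (0.91), Cacnb1 (0.89) and Serpinb6a (0.88), and Gabbr1 by Kctd17 (0.89), Hydin (0.89) and Ehd3 (0.88). Snap25 was followed by Ccdc85a (0.90), Ttc41 (0.89) and Zkscan6 (0.88), Vamp2 by Crtc2 (0.86), Timp2 (0.85) and Glyatl3 (0.85), and Syp by Pgap3 (0.84), Prrg3 (0.83) and Rufy3 (0.83). The best match of Cplx1, near background, was Gpr20 (0.74), then Eprs (0.74) and Vamp4 (0.72). No gene of the set was among the closest 3 of another.

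Between themselves Syn1 and Syn2 had a Pearson r of 0.78 over the 16 libraries and of 0.71 over the gate differences of the 8 pools, but of 0.05 once each library was taken as its deviation from its group mean. The deviations of Syn1 went most closely with those of Vamp2 (0.81), and those of Syp with Snap25 (0.65). No p is given for these, since libraries of a pool are not independent.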

How the data were processed

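The authors deposited log2 expression values of 28846 probe sets. Per the submitters' processing notes the tool was Affymetrix Expression Console, with the version, summarisation and build not given in the sources used here. Control probe sets were left out, the rest were named through the platform's annotation, and the brightest probe set per gene was kept, which left 19505 genes. The values were used as deposited. limma 3.58.1 in R 4.3.3 (lmFit, eBayes) gave the gate differences from 16 libraries with the pool as a block, and bourgeonal against vehicle from 8 libraries per gate without one. All tests are two-sided, p-values were adjusted by Benjamini-Hochberg over 19505 genes, and calls needed an adjusted p under 0.05; single genes were also tested by exact sign-flip or permutation tests. The fits were tested on simulated data. Precision is limited by the number of arrays, which have no read depth.

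The 9 genes and all lists were chosen with earlier results of these data known. Named pathway genes are up to 4 per list that passed, by size of gate difference; named cell type markers come from the first 3 measured in each list's own order, with S100a5 and Omp always; for each of the 9 genes the 3 most alike by Pearson r were named, and others are marked where named. The pool links the gates because both came from the same mice; deviations of a pool's gates correlated at 0.10 to 0.29. Between same-numbered vehicle and bourgeonal libraries the correlation was 0.16 to 0.21 titled GFP+ and 0.09 to 0.16 titled GFP-. Alternatives were other scalings, a filter on dim genes, the mean of probe sets, another prior, the block and leaving out each pool.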

Additional observations from a re-analysis of the deposited data

Results flagged for a closer look

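Each value here is the highest or lowest of its group and stood apart from the others by Dixon's criterion, which flags about 1 in 20 groups by chance. The gate difference of Syn2 in bourgeonal pool 3 was 1.26, against 0.47 to 0.84 in the other 7 pools. The Vamp2 level of vehicle pool 3 titled GFP+ was 15.20, below the 15.36 to 15.38 of the other 3 vehicle libraries of that gate. Cplx1 in that library read 4.92, against 4.22 to 4.32 in the other 3, and the gate difference of Cplx1 in vehicle pool 3 was -0.66, against -0.02 to 0.45 in the other 7 pools. Cplx1 lay near background in all 16 libraries.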

How the results depend on the processing

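Syn1 and Syn2 were called in all 3 gate comparisons under every alternative run, except Syn2 in vehicle pools without vehicle pool 4 (1 of the 9 genes called there; 1 to 2 when each pool was left out). With each library centred on its median, 9, 8 and 9 of the 9 genes were called over all, vehicle and bourgeonal pools, and 16128, 12023 and 12174 of all genes. With dim genes left out 4 of 8 were called over all pools, beside 2625 of 13011 genes called higher. With the trend and robust prior 6 were called over all and 5 over bourgeonal pools, beside 3146 and 1894 of 19505 genes called higher. Without the replicate block the gate calls were 2 in each comparison. All genes called higher there were 2290, 946 and 1223 of 19505 over all, vehicle and bourgeonal pools. With a replicate block on shared numbers, bourgeonal against vehicle called 1 gene titled GFP+ and 0 of the 9; quantile normalization called 1, dim genes left out 0, and leaving out a replicate 0 to 2. Titled GFP-, the trend and robust prior called 1 gene.

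Among the 9 genes, signs turned only in differences that did not pass, and apart from scaling the cause was not tested. Under quantile normalization the gate difference of Syp in vehicle pools was -0.0078, that of Vamp2 in bourgeonal pools -0.0307, the Syn1 change with odor -0.0255, and Gabbr1 with bourgeonal titled GFP- was -0.0034; centring gave -0.012 for Gabbr1 and -0.004 for Cplx1 there. Leaving out a replicate spanned, for the vehicle gate difference, -0.0035 to 0.14 for Snap25 and -0.11 to 0.26 for Cplx1; for the bourgeonal one, -0.0717 to 0.0653 for Vamp2; for the change with odor, -0.10 to 0.0831 for Syn1 and -0.0962 to 0.28 for Cplx1. For bourgeonal against vehicle titled GFP+ it spanned -0.0562 to 0.0673 for Slc17a6, -0.19 to 0.0807 for Syn1, -0.11 to 0.16 for Vamp2, -0.0753 to 0.0372 for Snap25, -0.19 to 0.0433 for Cplx1 and -0.13 to 0.0006 for Gabbr1. Titled GFP- it spanned -0.006 to 0.14 for Slc17a6, -0.11 to 0.0616 for Syn1, -0.0968 to 0.0478 for Syt1, -0.0529 to 0.12 for Cplx1 and -0.0386 to 0.0725 for Gabbr1. Signal near background limits Cplx1 and signal near the top of the scale limits Syp.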

Other observations

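Genes for transmitters other than glutamate mostly gave no signal above background. Of 11 genes that make or load GABA, glycine, acetylcholine and monoamines, 10 lay below background in all 4 groups. The other, Tph2, which codes for an enzyme of serotonin synthesis, was above it in all 4, at group means of 5.12 to 6.20. It was higher in libraries titled GFP- by 0.73 in 8 of 8 pools (limma adjusted p = 0.000472). Tph2 passed in bourgeonal pools (1.07) and not in vehicle pools (0.39, limma adjusted p = 0.116). The difference between these values did not pass (0.68, limma adjusted p = 0.823). Chat, Gad2 and Slc6a5 were called too, at -1.08, -0.84 and 0.33, between values below background.

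The library of bourgeonal pool 3 titled GFP+ was the lowest of the 16 for Syn1 (10.56), Syn2 (12.99), Vamp2 (14.94) and Syt1 (14.93), whereas its Slc17a6 (15.26) and Snap25 (16.24) lay inside the range of its group. Its median mature neuron marker, 17.14, lay inside the 17.02 to 17.23 of the bourgeonal libraries titled GFP+, and its median immune marker, 10.77, was the highest of those 4. The library of vehicle pool 2 titled GFP+ had a higher immune median, 11.23. There Syn1 read 10.88, Syn2 13.72, Vamp2 15.36 and Syt1 15.39. The part of immune cells in these levels was not tested. Without bourgeonal pool 3 the gate difference over the remaining 7 pools was 0.59 for Syn1 and 0.68 for Syn2.

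Over the 8 pools the gate difference of Syn1 and that of S100a5 had a Pearson r of -0.59, and that of Syn2 and S100a5 one of 0.01. For the other genes of the set it ranged from -0.43 (Slc17a6) to 0.71 (Syt1). These values are a description only, since each gene was read in the same libraries as S100a5.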
